A study of Mus musculus with 8 samples.

Results

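The hormone hepcidin and the proteins that carry, take up, store, sense and export iron were followed through 10 genes, chosen by gene symbol: Hamp, Hamp2, Bmp6, Hfe, Tfr2, Trf, Tfrc, Slc40a1, Fth1 and Ftl1. They held 21 of the 45220 features of the deposited table, of which 33653 carried a single gene symbol, and 10 of the 19087 genes that those made. Tfrc had 10 features, Hfe and Bmp6 had 2 each, and the other 7 genes had 1 each. Liver RNA of C57Bl/6 mice at 9 months of age was compared on 8 two-colour Agilent arrays. Mice with a mutant protein in place of Wrn, a RecQ helicase whose human counterpart is lost in Werner syndrome, were set against wild type mice. On 4 arrays the mutants were untreated and on 4 they had been given vitamin C, at a dose and for a time that the sources used here do not give. Each group's arrays came from independent biological replicates, per the series design, and the sources used here do not give the sex of the mice. Wild type mice had no vitamin C group, so every value is a mutant against an untreated wild type, and the treated and untreated arrays of a number carry the same wild type number. In each group, Cy5 labelled the mutant on replicates 1 and 2, and Cy3 did on replicates 3 and 4. Dye orientation thus coincides with wild type numbers 1 and 2 against 3 and 4. Effects of the dyes and of those wild type livers cannot be told apart.

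The deposited values are log ratios, with no level or intensity behind them, so neither the order of these genes by abundance nor the liver identity of the RNA could be checked, and the number of arrays limits the precision. They are read as base 2 logarithms, a base that the sources used here do not state. Nor do they state whether the swapped arrays, replicates 3 and 4, had already been turned. Values are given as deposited, which takes them as mutant over wild type on every array. That direction is not settled. It rests on wild type being listed as first channel throughout and on the series title, which compares mutants to wild type. The array titles put the RNA in Cy5 ahead of that in Cy3 and point to the other reading, in which replicates 3 and 4 have to be multiplied by -1. Results under this second reading, called turned by the dyes, stand beside the first for the group means of the 10 genes and for the counts. Arrays of the same orientation correlated at -0.03 to 0.37 over all features and arrays of opposite orientation at -0.20 to 0.06. Wrn itself, measured by 4 features, stood at 0.19 ± 0.10 in untreated mutants and 0.16 ± 0.10 in treated ones as deposited (SE, 4 arrays each), and neither passed the test across all genes (limma, adjusted p = 0.698 and 0.809).

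Hepcidin is a small peptide made by hepatocytes. It binds ferroportin, the only known iron exporter of vertebrate cells, and has it degraded, so that the gut, macrophages and liver release less iron into plasma. Its gene is switched on by iron through bone morphogenetic proteins and SMAD factors, and by inflammation through interleukin 6 and STAT3. Iron travels in plasma on transferrin, enters cells through transferrin receptor 1 and is stored in ferritin, whose translation, like the stability of the receptor's mRNA, is set by iron regulatory proteins.

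Mice carry a pair of hepcidin genes on chromosome 7, Hamp and Hamp2, and the arrays held a feature for each. Iron regulation through hepcidin is known from Hamp, while Hamp2 is not known to lower plasma iron in mice. The 250 bases before each start site are shown because the genes took opposite signs on 4 of the 8 arrays and because inputs to Hamp are read there. The part of these sequences in the Hamp and Hamp2 values was not tested. They come from RefSeq on the build GRCm38.p6, both on the minus strand, at chr7:30944030-30944279 for Hamp and chr7:30924182-30924431 for Hamp2. Capitals mark GGCGCC, the core of the SMAD-binding BMP response element, with the letters aligned to it in Hamp2, and TTCNNNGAA, a STAT-type motif.
Hamp: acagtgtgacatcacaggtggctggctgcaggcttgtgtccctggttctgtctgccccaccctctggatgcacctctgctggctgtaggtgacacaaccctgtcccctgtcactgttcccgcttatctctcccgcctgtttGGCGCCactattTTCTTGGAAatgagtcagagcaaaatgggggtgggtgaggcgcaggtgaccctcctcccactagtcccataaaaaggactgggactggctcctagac
Hamp2: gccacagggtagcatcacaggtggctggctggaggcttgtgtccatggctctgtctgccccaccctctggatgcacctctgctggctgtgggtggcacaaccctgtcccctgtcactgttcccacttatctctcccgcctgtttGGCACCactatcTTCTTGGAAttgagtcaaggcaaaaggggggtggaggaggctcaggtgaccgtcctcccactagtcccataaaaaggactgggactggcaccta
Over 247 aligned bases, 227 were identical (91.9%). GGCGCC lay at -109 to -104 from the start of Hamp. The aligned letters in Hamp2 are GGCACC, which differ by G4A, counted from 1 at the first letter of the motif with the letter of Hamp first. TTCNNNGAA lay at -97 to -89 in Hamp and at -94 to -86 in Hamp2. Both motifs read the same on both strands and do not overlap here. GGCGCC was found in 9.59% and TTCNNNGAA in 7.02% of 32851 promoters of this length, and both together in 0.368%. Promoters were in the RefSeq table for 8 of the 10 genes, all but Trf and Slc40a1. Of the others, Tfrc alone held a match, GGCGCC at -89 to -84.

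**Figure D1:**
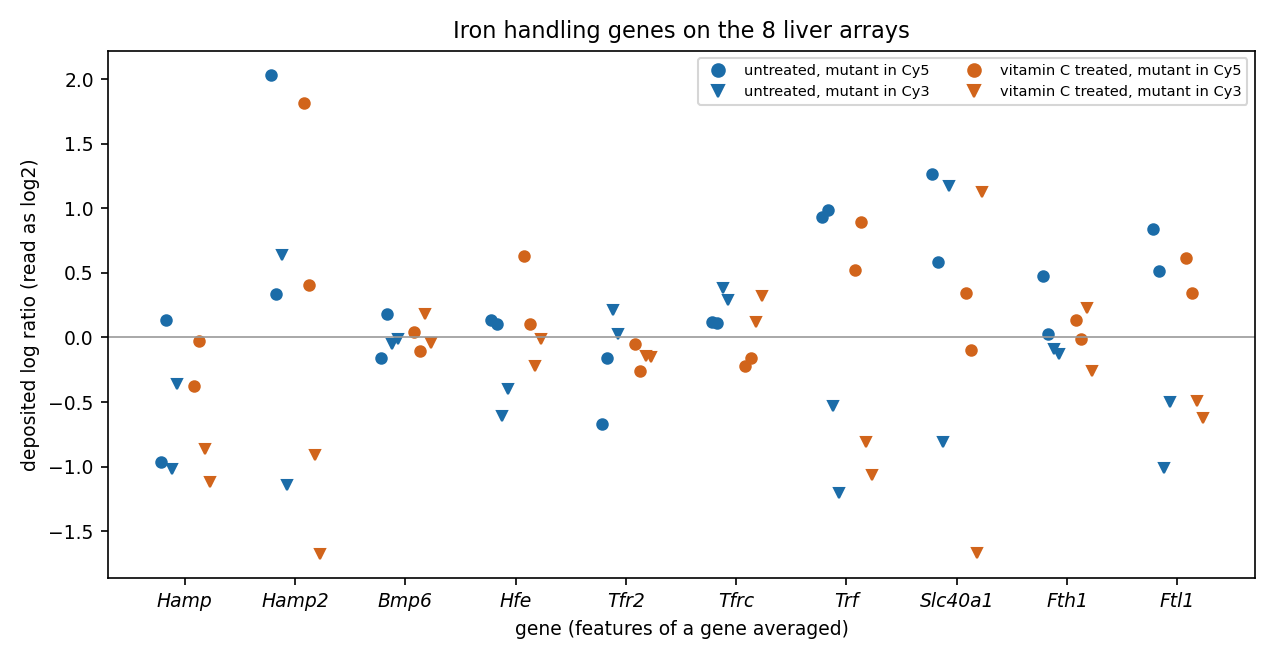
Deposited log ratio (read as log2, vertical axis) of each of the 10 genes (horizontal axis) on each of the 8 arrays; colour marks the group and the symbol marks the dye of the mutant RNA. Trf, Ftl1 and Hfe lie above 0 on arrays with the mutant in Cy5 and below 0 on arrays with the mutant in Cy3, while Hamp lies below 0 on 7 of 8 arrays.

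Hamp was below 0 on 7 of the 8 arrays as deposited. In untreated mutants its log ratios were -0.96, 0.14, -1.02 and -0.36 on replicates 1 to 4. In treated mutants they were -0.38, -0.03, -0.86 and -1.12. The groups overlapped throughout, and the arrays with the mutant in Cy3 held the lower values of the treated group. The mean was -0.55 ± 0.19 in untreated and -0.60 ± 0.19 in treated mutants (SE, 4 arrays each), with 95% intervals of -0.97 to -0.13 and -1.02 to -0.18. Neither passed across all genes by limma (adjusted p = 0.577 and 0.637). Averaged over both groups, with the number as a random block, Hamp stood at -0.57 ± 0.14 (adjusted p = 0.313), which is 1.49-fold lower on a log2 scale. Without untreated replicate 1 the untreated mean was -0.28, the furthest that leaving out 1 array moved it. Hamp turned by the dyes instead stood at 0.14 ± 0.18 and 0.39 ± 0.18 (adjusted p = 0.827 and 0.551), so its direction depends on the reading.

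Treated and untreated mutants did not differ in Hamp beyond the error, at -0.05 ± 0.26 (95% interval -0.64 to 0.55, adjusted p = 0.999). Within the numbers 1 to 4 the treated array minus the untreated one gave 0.58, -0.17, 0.15 and -0.76, with signs split evenly. Acute phase proteins, made by the liver under the same interleukin 6 signal that drives hepcidin, moved by array too. The median of 13 such genes was -0.06, 0.10, -0.66 and 0.52 on the untreated arrays and 0.59, 0.15, -0.81 and 0.12 on the treated ones. It was lowest on both arrays of number 3, where Hamp was also low, but above 0 on both arrays of number 4. From the fit, the median of these genes was 0.10 in untreated and 0.08 in treated mutants as deposited, and -0.03 and 0.45 turned by the dyes. Their part in the Hamp values was not tested.

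Hamp2 spread far more widely than Hamp. Its log ratios were 2.03, 0.34, 0.64 and -1.14 in untreated mutants and 1.82, 0.41, -0.91 and -1.68 in treated ones. It was above 0 on all 4 arrays with the mutant in Cy5 and below 0 on 3 of 4 with the mutant in Cy3. The means were 0.47 ± 0.37 and -0.09 ± 0.37 (adjusted p = 0.797 and 0.972). After turning by the dyes they were 0.72 ± 0.37 and 1.20 ± 0.37 (adjusted p = 0.552 and 0.369), and the mean over both groups was 0.96 ± 0.27 (adjusted p = 0.15). Treated minus untreated was -0.56 ± 0.52 as deposited (95% interval -1.73 to 0.62, adjusted p = 0.974), and number 3 gave the largest of its differences, at -1.55. With the number as a block, the SE of that mean was 0.25 (95% interval -1.13 to 0.02, limma, adjusted p = 0.757). The untreated mean was 0.01 without untreated replicate 3 and 0.90 without untreated replicate 2. The Hamp and Hamp2 transcripts are close relatives, and how far each feature also binds the other is not stated in the sources used here. Xist, a sex chromosome gene, had the sign of Hamp2 on every array as deposited. It read 0.14, 0.56, 0.58 and -0.16 untreated and 0.78, 0.38, -0.997 and -0.52 treated. The Y chromosome genes Eif2s3y, Uty and Kdm5d lay between -0.696 and 0.22. The fitted median of 13 female-biased liver genes was 0.06 in untreated and -0.67 in treated mutants as deposited. Turned by the dyes it was 0.35 and 0.43. Array by array, their median was 0.40, 0.34, 0.07 and -0.46 untreated and -0.57, 0.23, -1.06 and -0.74 treated as deposited. On treated replicate 1, where Hamp2 was at 1.82, it was below 0. The fitted median of 12 male-biased liver genes was -0.03 and 0.35 as deposited and 0.03 and 0.08 turned. As deposited, treated minus untreated was above 0 for 12 of those 12 and 3 of the 13 female-biased ones. Turned by the dyes, 5 and 11 were. The part of sex in the Hamp2 values was not tested.

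Upstream of hepcidin, Bmp6 is the ligand that liver endothelium releases when iron is high, and its values lay near 0. They were -0.16, 0.18, -0.05 and -0.01 in untreated mutants and 0.04, -0.10, 0.18 and -0.04 in treated ones. The means were -0.01 ± 0.10 and 0.02 ± 0.10 (adjusted p = 0.996 and 0.979), with 95% intervals of -0.23 to 0.21 and -0.20 to 0.24. By the other reading the means were 0.02 ± 0.10 and -0.05 ± 0.10 (adjusted p = 0.959 and 0.924). Its 2 features did not agree in sign in untreated mutants, at 0.10 ± 0.15 and -0.12 ± 0.12 as deposited and 0.28 ± 0.13 and -0.24 ± 0.12 turned by the dyes, with no call.

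Hfe, the haemochromatosis protein that helps hepatocytes sense iron, read 0.13, 0.11, -0.60 and -0.40 in untreated mutants and 0.63, 0.11, -0.22 and -0.01 in treated ones. All 4 arrays with the mutant in Cy5 were above 0 and all 4 with the mutant in Cy3 below it. The means were -0.19 ± 0.11 and 0.13 ± 0.11 as deposited and 0.31 ± 0.13 and 0.24 ± 0.13 turned by the dyes, and none passed (adjusted p = 0.47 or more). The pattern came from 1 of its features. Feature 14479 read 0.72, 0.12, -0.80 and -0.63 untreated and 0.63, 0.24, -0.65 and -0.42 treated, and its dye coefficient of 0.53 ± 0.09 passed over all features (adjusted p = 0.0201). Feature 43587 read -0.45, 0.09, -0.41 and -0.17 untreated and 0.64, -0.03, 0.21 and 0.39 treated, with a dye coefficient of 0.03 ± 0.10. By that feature treated minus untreated was 0.54 ± 0.20 (adjusted p = 0.953 over all features), against 0.10 ± 0.19 by the other.

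Tfr2, the transferrin receptor that hepatocytes use as an iron sensor rather than for uptake, was low on untreated replicate 1. It read -0.67, -0.16, 0.21 and 0.03 in untreated mutants and -0.05, -0.26, -0.15 and -0.15 in treated ones, where all arrays were below 0. The means were -0.15 ± 0.12 in both groups, and without untreated replicate 1 the untreated mean was 0.01. After turning they were -0.27 ± 0.11 and 0.00 ± 0.11, with no call (adjusted p = 0.442 and 0.996).

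Trf, the plasma carrier transferrin secreted by hepatocytes, followed the dyes. It read 0.93, 0.99, -0.53 and -1.20 in untreated mutants and 0.52, 0.90, -0.81 and -1.06 in treated ones. Arrays with the mutant in Cy5 averaged 0.84 and those with the mutant in Cy3 averaged -0.90, with no overlap. As deposited these cancelled, to 0.05 ± 0.13 in untreated and -0.11 ± 0.13 in treated mutants, and the dye coefficient took the difference, at 0.87 ± 0.09 (limma, adjusted p = 0.00406). The fit of that coefficient had no block, although the 8 arrays share 4 wild type numbers. The coefficient is the same contrast of arrays as the mean of both groups turned by the dyes. Under that reading Trf was higher in mutants by 0.91 ± 0.13 untreated and 0.82 ± 0.13 treated, which missed the threshold (adjusted p = 0.0585 and 0.0803). The mean over both groups, with the number as a random block, was 0.87 ± 0.10 and passed (adjusted p = 0.00592), which is 1.83-fold. That block used 1 correlation for all genes, 0.093, so arrays that share a wild type number counted as nearly independent. Fitted feature by feature, the untreated value passed as well (adjusted p = 0.0436). Neither reading separated treated from untreated mutants, with -0.16 ± 0.18 as deposited and -0.09 ± 0.19 turned.

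**Figure D2:**
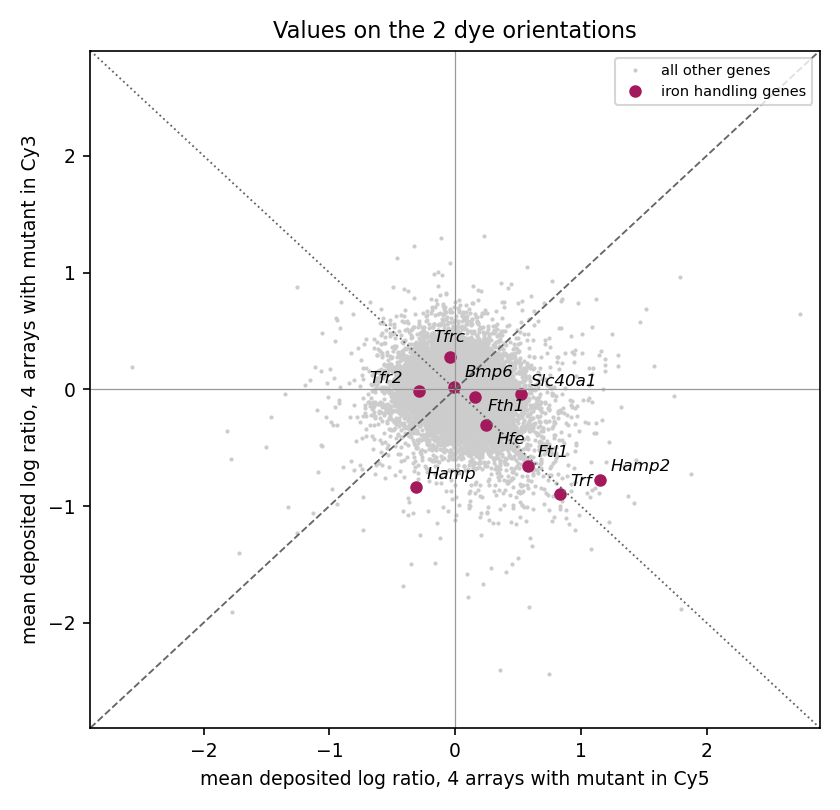
Mean deposited log ratio over the 4 arrays with the mutant in Cy5 (horizontal axis) against the mean over the 4 arrays with the mutant in Cy3 (vertical axis) for all 19087 genes in grey and the 10 iron handling genes in colour. Genes near the dashed diagonal have the same value on both orientations and genes near the dotted one have opposite values; Trf (0.84 and -0.90), Ftl1 (0.58 and -0.66) and Hfe lie along the dotted line, and Hamp (-0.31 and -0.84) is below 0 on both axes.

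Tfrc, transferrin receptor 1, takes iron-loaded transferrin into cells, and its mRNA is stabilised when iron is short. The mean of its features was 0.12, 0.11, 0.38 and 0.29 in untreated mutants, above 0 on all 4 arrays. In treated mutants it was -0.22, -0.16, 0.12 and 0.32. The means were 0.23 ± 0.09 (95% interval 0.02 to 0.43, adjusted p = 0.608) and 0.02 ± 0.09. The untreated mean stayed between 0.20 and 0.26 when each array of that group was left out in turn. Treated minus untreated was -0.21 ± 0.13 (95% interval -0.49 to 0.08), with within-number differences of -0.34, -0.27, -0.26 and 0.03. The untreated and treated means turned by the dyes were -0.11 ± 0.10 and -0.21 ± 0.10 (adjusted p = 0.738 and 0.591), so the sign of Tfrc too depends on the reading.

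The features of Tfrc spread widely on each array. On treated replicate 1 they ran from -1.02 to 0.31, with an SD of 0.52 and 5 above 0. On treated replicate 2 they ran from -0.58 to 0.09, with an SD of 0.18. On untreated replicate 3, where the mean was highest, they ran from -0.20 to 0.89 and 8 were above 0. The SD among features had a median of 0.317 over the arrays, against a median of 0.268 over the 93 genes with 10 features, Tfrc included. Of those genes, 25, again counting Tfrc, were at or above 0.317. Feature by feature, the untreated means ran from -0.02 to 0.48 and the treated ones from -0.31 to 0.20, and none passed over all features. Of the other genes here, 7 rest on 1 feature.

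**Figure D3:**
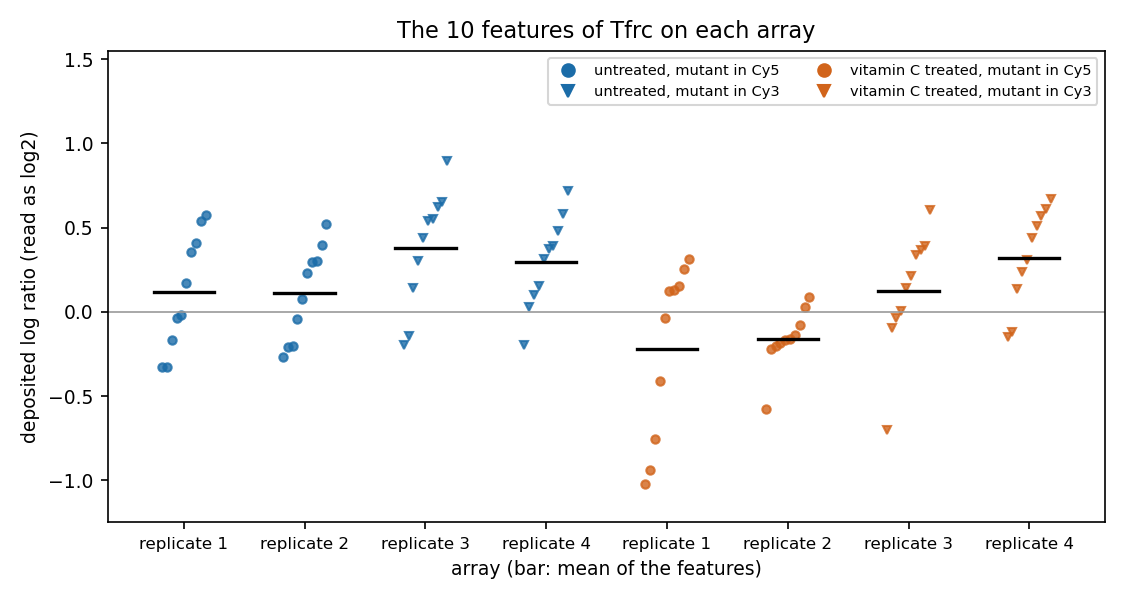
Deposited log ratio (read as log2, vertical axis) of the 10 features of Tfrc on each array (horizontal axis, untreated mutants left, vitamin C treated right), sorted within an array; bars are the means of the features. The features spread over as much as -1.02 to 0.31 on treated replicate 1, while the means of the 8 arrays lie between -0.22 and 0.38.

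Slc40a1 encodes ferroportin, the exporter that hepcidin removes, and in liver its mRNA is highest in Kupffer cells, the resident macrophages that recycle iron from red cells. It read 1.26, 0.58, -0.81 and 1.17 in untreated mutants and 0.35, -0.10, -1.67 and 1.13 in treated ones. Both groups were lowest on number 3 and above 1 on number 4. The means were 0.55 ± 0.42 and -0.07 ± 0.42 (adjusted p = 0.78 and 0.981), and 0.37 ± 0.44 and 0.20 ± 0.44 turned by the dyes. Markers of Kupffer cells and macrophages were also lowest on number 3 by their median, but did not follow Slc40a1 on every array. The median of the 10 measured of 12 markers was 1.16, 0.90, -1.74 and 0.41 on the untreated arrays and 1.23, 1.12, -1.44 and 1.91 on the treated ones. On both arrays of number 3, 9 of the 10 were below 0, with Marco, a scavenger receptor, at -5.35 and -4.75 and Cd5l at -2.84 and -2.83, while Cd163, the haemoglobin scavenger receptor, stood at 1.00 and 1.98. Medians of sinusoidal endothelium (-0.50 and -0.54), erythroid (-1.23 and -0.60), hepatocyte, stellate and lymphocyte markers were also lowest on number 3 in both groups. Neutrophil markers were lowest there in untreated mutants only. Both arrays of number 3 carry the same wild type number, so low values in mutants and high ones in that wild type cannot be told apart. In whole liver RNA, fewer cells of a type and less RNA per cell cannot be told apart either. The part of macrophages in the Slc40a1 values was not tested. Without number 3 the means were 1.11 in untreated and 0.56 in treated mutants (adjusted p = 0.474 and 0.573). Without number 4 they were 0.05 and -0.77 (adjusted p = 0.954 and 0.278).

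Within each number Slc40a1 was lower on the treated than on the untreated array, by differences of -0.92, -0.68, -0.85 and -0.04. The mean of these was -0.62, with an SE of 0.59 when arrays were taken as unpaired (adjusted p = 0.974). With the number as a block the SE was 0.18, with a 95% interval of -1.03 to -0.22, and the adjusted p over all genes was 0.757. The same block gave -0.05 ± 0.21 for Hamp, 0.32 ± 0.14 for Hfe and -0.21 ± 0.14 for Tfrc (limma, adjusted p = 0.981, 0.757 and 0.8). Elsewhere, except for Hamp2, treated minus untreated is given with arrays taken as unpaired. As deposited, the macrophage medians were higher on the treated array of every number, and 9 of the 10 markers had a treated minus untreated mean above 0, with a median of 0.59. When values are turned by the dyes, the differences of numbers 3 and 4 change sign and the mean for Slc40a1 was -0.18 ± 0.62. The markers then had a median of -0.38, with 0 of 10 above 0.

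**Figure D4:**
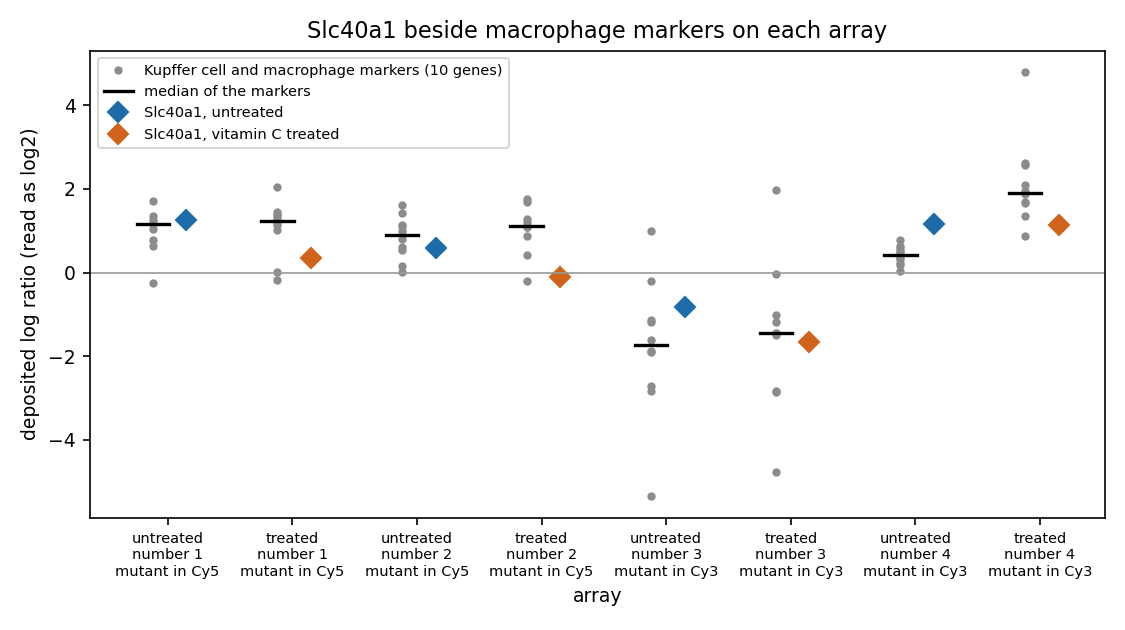
Deposited log ratio (read as log2, vertical axis) of Slc40a1 (diamonds) beside 10 Kupffer cell and macrophage markers (grey points, with their median as a bar) on each array (horizontal axis), ordered by number. Both arrays of number 3 have the lowest Slc40a1 values and the lowest marker medians, -1.74 and -1.44, although Cd163, one of the markers, is at 1.00 and 1.98 there.

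The ferritin subunits store iron in a shared shell, with the heavy chain Fth1 oxidising it and the light chain Ftl1 helping the core to form. Fth1 stayed near 0, at 0.47, 0.02, -0.09 and -0.13 in untreated mutants and 0.14, -0.02, 0.23 and -0.26 in treated ones. Its means were 0.07 ± 0.12 and 0.02 ± 0.12 as deposited and 0.18 ± 0.12 and 0.04 ± 0.12 turned by the dyes, with no call. Ftl1 followed the dye orientation as Trf did, at 0.84, 0.52, -1.01 and -0.50 in untreated mutants and 0.61, 0.34, -0.49 and -0.62 in treated ones. Its means were -0.04 ± 0.12 in both groups as deposited, with 95% intervals of -0.31 to 0.24 and -0.32 to 0.24. The dye coefficient was 0.62 ± 0.09 (adjusted p = 0.0106). Turned by the dyes, Ftl1 was higher in mutants by 0.72 ± 0.11 untreated and 0.52 ± 0.11 treated, short of the threshold (adjusted p = 0.0649 and 0.18), and the mean of both groups, 0.62 ± 0.09, passed (adjusted p = 0.0144). Ferritin is set mainly at translation, which mRNA ratios do not measure.

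**Figure D5:**
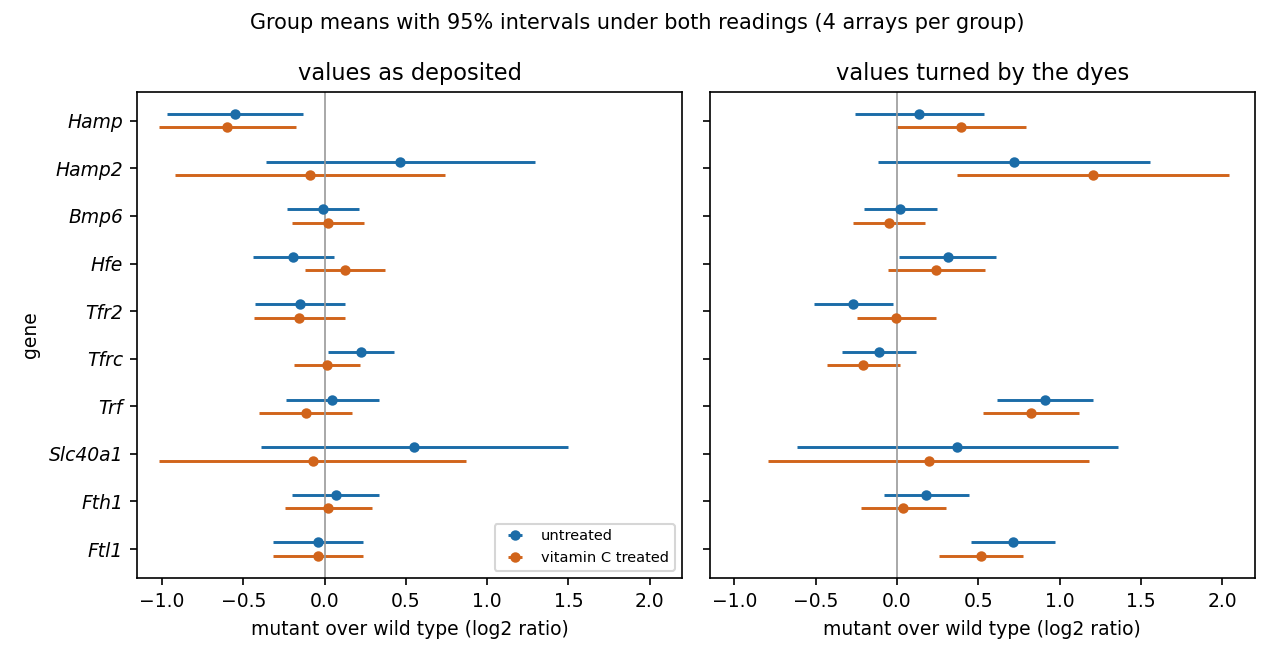
Mutant over wild type log2 ratio (horizontal axis) of the 10 genes (vertical axis) with 95% intervals from the fit across all genes, 4 arrays per group; values as deposited on the left and turned by the dyes on the right. Trf moves from 0.05 and -0.11 on the left to 0.91 and 0.82 on the right, and Hamp from -0.55 and -0.60 to 0.14 and 0.39.

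Counted together, none of the 10 genes passed in any of the 3 comparisons as deposited, where 0.00% of all genes did in untreated mutants over wild type, 0.00% in treated mutants over wild type and 0.00% between the groups. At an unadjusted p under 0.05 there were 2 of the 10 in untreated mutants, Hamp and Tfrc, against 7.79% of genes, 1 in treated mutants, Hamp, against 7.09%, and none between them, against 4.28%. For the mean of both groups, Hamp was under that p, against 8.14% of genes, and none passed, against 0.00%. Turned by the dyes, none of the 10 passed in untreated mutants (0.0472% of genes did), in treated mutants (0.0524%) or between the groups (0.00%). There 4 of 10 had an unadjusted p under 0.05 in untreated mutants against 10.1% of genes, 3 of 10 in treated mutants against 9.15%, and none between the groups against 3.00%. For the mean of both groups turned by the dyes, 2 of 10 passed against 1.21% of genes, Trf and Ftl1, and 4 of 10 had an unadjusted p under 0.05 against 13.2%. The same 2 passed on the dye coefficient as deposited, against 1.94% of genes. Signs followed the orientation on all 8 arrays for 3 of 10 genes, against 4.10% of all. The sign was the same on all 4 untreated arrays for Tfrc, against 12.9% of genes, and on all 4 treated arrays for Hamp and Tfr2, against 13.2%. The median of the 10 as deposited was 0.02 in untreated and -0.06 in treated mutants, beside -0.01 and 0.00 over all genes. Turned by the dyes it was 0.25 and 0.22, beside -0.01 and -0.01.

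Around these genes, 98 others of iron handling were listed in 7 groups and 92 were measured. None passed in any comparison under either reading. As deposited, 3 had an unadjusted p under 0.05 and stood above 0 in untreated mutants and 8 stood below, 12% of those measured beside 7.79% of all genes. In treated mutants 5 stood above and 7 below (13%, beside 7.09% of all genes), and between the groups 4 above and 5 below (9.78%, beside 4.28%). The balance of directions changed with the reading. After turning by the dyes, 9 stood above and 3 below in untreated mutants (13%, beside 10.1% of all genes). In treated mutants 8 then stood above and 5 below (14.1%, beside 9.15%), and none reached that p between the groups (0%, beside 3.00%). Of 21 measured genes of BMP and SMAD signalling to hepcidin, none reached that p in untreated mutants and 1 did in treated ones, the BMP receptor gene Acvr1 at -0.34 ± 0.11. Of 11 in inflammatory signalling, 1 stood above 0 and 2 below at that p in untreated mutants. Among them Il6ra, the interleukin 6 receptor, stood at -0.37 ± 0.10 (adjusted p = 0.469) and Creb3l3, a liver transcription factor, at 0.41 ± 0.15. In treated mutants Cebpb, a transcription factor of the acute phase, was at 0.41 ± 0.13 and Il22ra1, an interleukin 22 receptor chain, at -0.38 ± 0.14.

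Among 17 measured genes of iron uptake, reduction and export, Cp, the ferroxidase ceruloplasmin that works with ferroportin, stood at 0.25 ± 0.09 in untreated mutants. Steap3, the ferrireductase of endosomes, was at 0.25 ± 0.09. At an unadjusted p under 0.05 by limma, 2 genes of that list stood above 0 there and 1 below. Of the 17, 9 were above 0, with a median of 0.02. Treated minus untreated was -0.41 ± 0.13 for Cp and -0.36 ± 0.13 for Steap3 (adjusted p = 0.974 for each). Other genes of the lists went the other way in that comparison, with Cebpb at 0.73 ± 0.18, Cd163 at 0.86 ± 0.24 and Blvrb at 0.45 ± 0.14 (adjusted p = 0.974 for each). Of 14 genes of heme and haemoglobin scavenging, Cd163 had the smallest p in treated mutants, at 1.20 ± 0.17 (adjusted p = 0.363), and was at 0.34 ± 0.17 in untreated ones. Cd163 is also among the macrophage markers above. Blvrb, biliverdin reductase B, was at 0.38 ± 0.10 and Flvcr2, a membrane transporter, at -0.43 ± 0.11 in treated mutants. Flvcr2 was at -0.35 ± 0.11 in untreated mutants.

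The remaining lists held Bola2, a partner in iron chaperoning, at -0.42 ± 0.11 in untreated mutants, with treated minus untreated at 0.51 ± 0.16. Ciapin1, of cytosolic iron-sulphur cluster assembly, stood at -0.45 ± 0.13 in untreated mutants. Isca2, of mitochondrial cluster assembly, was at 0.21 ± 0.09 in treated mutants, and Hspa9, the mitochondrial chaperone of that pathway, at -0.31 ± 0.13 between treated and untreated. The BMP receptor gene Acvr1 was at -0.43 ± 0.15 in that comparison. Among iron sensors, Vhl, which marks hypoxia-inducible factors for degradation, stood at -0.38 ± 0.11 in treated mutants. Adjusted p-values of the genes named from these lists were 0.363 or more as deposited. Signs were opposite after turning by the dyes for Steap3, Creb3l3 and Cd163 in untreated mutants and for Cd163, Blvrb, Cebpb, Isca2 and Il22ra1 in treated ones. Between treated and untreated mutants the signs of Cebpb, Cd163, Blvrb and Hspa9 were opposite too. Some genes kept their sign but lay near 0 when turned, as Vhl at -0.02 and Acvr1 at -0.09 in treated mutants. Treated minus untreated was then -0.03 for Acvr1, -0.02 for Steap3 and 0.05 for Bola2. Others stayed further from 0 when turned, as Flvcr2 at -0.31 in treated and Cp at 0.34 in untreated mutants.

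Gene patterns most like Hamp over the 8 arrays, by Pearson correlation after the dye coefficient was subtracted, were those of Pcdh10 (0.986), Nrg4 (0.973), Setdb2 (0.971), Fam71f1 (0.967) and Cdh1 (0.966). These rankings depend on how the dyes are treated. On the values as deposited the correlations with Hamp ran from 0.03 for Setdb2 to 0.71 for Pcdh10, and turned by the dyes from 0.45 for Cdh1 to 0.86 for Setdb2. Most like Tfrc were Marveld2 (0.974), Tcl1b5 (0.968), Tax1bp1 (0.962), Lrrc4c (0.959) and Arl14 (0.958), at 0.02 to 0.88 as deposited. Turned by the dyes the latter ran from 0.09 for Marveld2 to 0.98 for Lrrc4c. Of the other iron genes, Tfr2 was nearest to Hamp at 0.562 and Slc40a1 nearest to Tfrc at 0.494 after the subtraction. As deposited these pairs were at 0.04 and 0.07, and the nearest were Trf to Hamp at 0.54 and Tfr2 to Tfrc at 0.32. The arrays of a number share a wild type, and the best of 19087 genes over 8 points are high by selection.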

How the data were processed

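Features of 10 iron genes were analysed on 8 two-colour arrays, 4 per group. The authors deposited log ratios, read as log2 values; limma is named in the submitters' processing notes without a version or role. The sources used here do not give log base, direction or normalization, and array medians lay between -0.01 and 0.01. The platform annotation gave 33653 features a single symbol, 56 several symbols and 11511 no symbol. Features of a gene were averaged, giving 19087 genes. All genes were fitted with limma 3.58.1 in R 4.3.3 (lmFit, eBayes), with group coefficients plus a dye coefficient, 5 residual degrees of freedom, Benjamini-Hochberg adjustment and a threshold of 0.05. The fit was run on simulated data with independent errors on each array. That leaves the shared wild type numbers and the direction of replicates 3 and 4 untested. Named iron genes are up to 4 of smallest p per direction and comparison. Arrays of a number share a wild type number in the labels, which pairs them; their deviations correlated at 0.00, 0.03, 0.24 and 0.20. Promoters were read with Python 3.11.15 and Biopython 1.88. Alternatives covered the direction, dye term, block, scaling, array weights, features and left-out arrays. The genes, lists and readings were chosen with earlier results of these data known.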

Additional observations from a re-analysis of the deposited data

How the results depend on the processing

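Of 560 member values recomputed under the alternatives, 547 moved by less than the SD between arrays, 2 moved by more with the same sign and 11 moved by more and changed sign, which is called reversed here. All 11 came from turning the values by the dyes. Values near 0 also changed sign within that SD, 67 in all, as for Slc40a1 in treated mutants, at 0.56 without both arrays of number 3. A further 12 reversals were of genes from the other iron lists. No member passed under any alternative in the fits of gene means for the 3 comparisons. The reversed values of both kinds in untreated mutants were 0.14 for Hamp, 0.31 for Hfe, -0.11 for Tfrc, 0.72 for Ftl1, -0.10 for Steap3, -0.50 for Creb3l3 and -0.46 for Cd163. In treated mutants they were 0.39 for Hamp, 1.20 for Hamp2, -0.21 for Tfrc, 0.82 for Trf, 0.52 for Ftl1, -0.63 for Cd163, -0.13 for Blvrb, -0.35 for Cebpb, -0.15 for Isca2 and 0.072 for Il22ra1. Between treated and untreated they were -0.068 for Hfe, 0.26 for Tfr2, -0.28 for Cebpb, -0.17 for Cd163, -0.14 for Blvrb and 0.13 for Hspa9. The cause of a reversal here is the sign given to replicates 3 and 4.

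Genes passing in untreated mutants over wild type numbered 0 as deposited, 9 turned by the dyes, 8 turned with the replicate block, and 1 and 15 without both arrays of numbers 2 and 4. In treated mutants they numbered 0, 10 and 11, and 6, 1 and 8 without numbers 2, 3 and 4. Leaving out single arrays gave 0 to 3, with 3 without treated replicate 2; the cause was not tested. Of the members' features 1 passed when turned, with or without the replicate block. As deposited, the replicate block gave 0 genes in all 3 comparisons and changed no call of a member. The block on the mean of both groups and the turned fit with a block were chosen after the data were seen. Single features, no intensities and 4 arrays per group limit what these ratios can show.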
